A study of Mus musculus with 24 samples.

Results

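Oligodendrocyte precursor cells (OPC) of the mouse ventral hippocampus are described here from single-nucleus RNA sequencing (snRNA-seq) of 2 inbred strains. The nuclei were chosen by the label OPC in the deposited annotation, which holds 1511 of 30880 nuclei, 778 of 16565 in C57BL/6J (B6) and 733 of 14315 in DBA/2J (D2). Each strain gave 2 libraries from adult males aged 10 to 16 weeks, and about 2 animals were pooled into each library. The study also made chromatin accessibility (snATAC-seq) libraries of the same strains and methylation libraries of these and other strains, and the methylation data were not analysed here. Nuclei for snRNA-seq were sorted on the neuronal protein NeuN so that most were neurons, and nuclei for snATAC-seq were sorted without NeuN. D2 reads were mapped to a mouse genome carrying D2 bases at known single-base variants, and the gene lists used to count the 2 strains differed.

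Oligodendrocyte precursors are the cells of the adult brain that divide and give rise to the myelin-forming oligodendrocytes. They carry the receptor PDGFRA, through which platelet-derived growth factor drives their division, and the surface proteoglycan NG2, encoded by Cspg4. In the hippocampus they receive synaptic input from neurons through glutamate and GABA receptors, and those that leave the cycle pass through a committed stage marked by Gpr17, Enpp6 and Bmp4 before they make myelin.

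OPC made up 4.50% (392 of 8707, 95% interval 4.08 to 4.96) and 4.91% (386 of 7858, 95% interval 4.44 to 5.41) of the nuclei in B6 libraries 2 and 3, and 4.64% (371 of 8003, 95% interval 4.19 to 5.12) and 5.74% (362 of 6312, 95% interval 5.17 to 6.34) in D2 libraries 2 and 3. The intervals are exact binomial intervals and cover counting error only. The share was highest in D2 library 3, and the other D2 library lay between the B6 libraries, so the strains overlapped. Because sorting set the number of neurons, the share was also taken over non-neuronal nuclei, where it was 14.3% and 13.5% in B6 and 15.02% and 15.8% in D2. On that scale both D2 libraries stood above both B6 libraries. The label ODC, which holds the mature oligodendrocytes, had 2.15 and 2.52 nuclei for each OPC nucleus in B6 and 1.44 and 1.41 in D2, again without overlap. These shares were not tested.

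**Figure D1:**
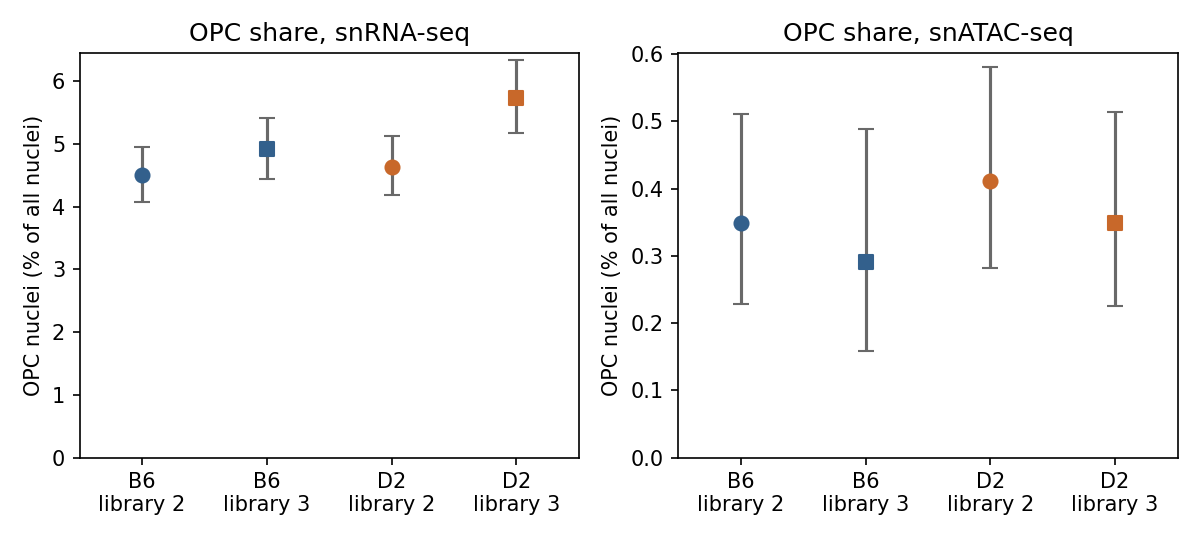
Share of OPC among all nuclei of each snRNA-seq library, with exact 95% binomial intervals. The intervals cover counting error only.

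The OPC nuclei of a library held 1389884, 1598333, 1224903 and 1425344 counts, in the order B6 library 2, B6 library 3, D2 library 2, D2 library 3, which is kept below. This was 3546, 4141, 3302 and 3937 counts for each nucleus. Depth overlapped between the strains, yet more symbols had a count in D2 (20836 and 21050) than in B6 (18224 and 18447). Of the symbols with 10 or more counts in D2 OPC, 998 had none in B6 OPC, and 983 of those had none in any B6 label. In the other direction there were 120 such symbols, 73 of them at 0 in every D2 label. All levels below are therefore counts per 1000000 (CPM) over the 12621 symbols with at least 10 counts in the OPC of each strain. These symbols hold 97.6%, 97.4%, 94.7% and 95.1% of the OPC counts.

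The label was set beside its 3 markers. Pdgfra had 1104 and 1139 CPM in B6 and 1074 and 1198 CPM in D2, and the next label was NN-VLMC at 302 (B6) and 246 (D2) CPM. Cspg4 had 315 and 293 CPM in B6 and 333 and 327 CPM in D2, followed by NN-VLMC (B6, 68.6 CPM) or NN-ODC (D2, 23.9 CPM). Vcan, which encodes the matrix proteoglycan versican, had 904 and 771 CPM in B6 and 810.3 and 852 CPM in D2, followed by Inh-Lamp5 at 219 (B6) and 171 (D2) CPM. All 3 markers were highest in OPC in all 4 libraries, out of 17 labels. Across the 12621 symbols counted in both strains, 368 (2.92%) were highest in OPC in every library. The label OPC thus holds the nuclei in which these markers are highest. It was made from expression in these same nuclei, so this is a description and no independent check. Among the other labels, NN marks non-neuronal nuclei and Exc and Inh mark excitatory and inhibitory neurons, and the summed markers of astrocytes, microglia and vascular cells were highest in NN-Astro, NN-MGC and NN-VLMC.

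Genes that set OPC apart were taken as those with a ratio of at least 4, in each of the 4 libraries, between OPC and the highest other label of the same strain, with 1 CPM added to both. This held for 37 of 12621 symbols (0.293%), called identity genes below. The label was itself made from expression in these nuclei, so the ratios are a description and carry no test. Of the 37, 28 are protein coding, 4 are antisense transcripts, 3 are long noncoding RNAs and 2 have no entry in the annotation used. The smallest ratios inside the limit were those of Epn2 (4.01), Car8 (4.15) and Gm20658 (4.17). Just outside it were Prkg2 (3.98), 1110015O18Rik (3.94), Armh4 (3.93) and Kcnh8 (3.92). Pdgfra (3.64) and Vcan (3.50) did not reach the limit, because VLMC and Inh-Lamp5 carry them too.

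**Figure D2:**
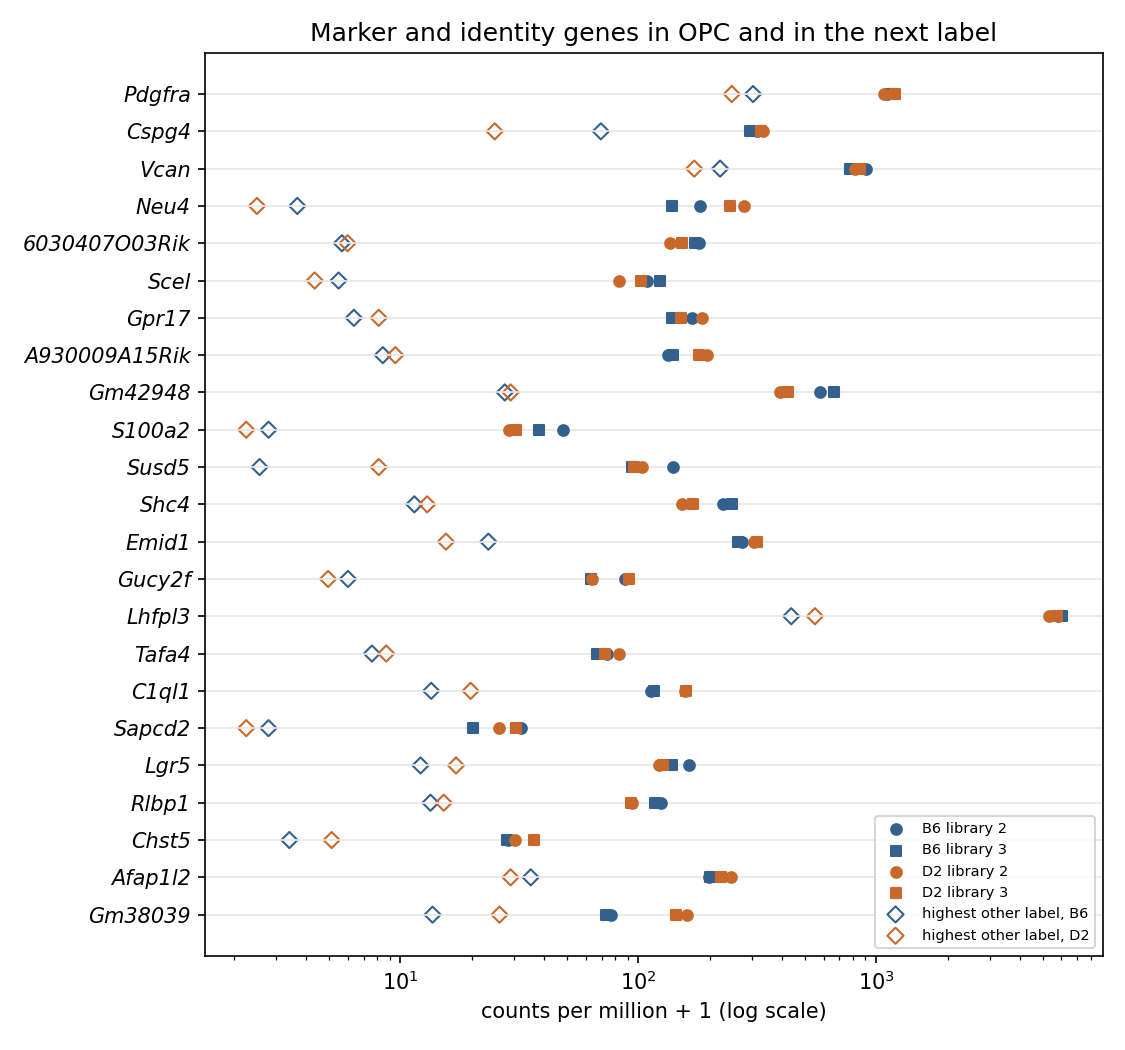
Levels of the markers and of the 20 named identity genes in each OPC library and in the next label of each strain. The scale is logarithmic.

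The 20 named identity genes are those with the largest ratio at a mean of 20 CPM or more. For each of them every OPC point lies to the right of the next label of its strain. The smallest ratio of the 4 libraries is largest for Neu4.

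Among enzymes, the sialidase Neu4 had 181 and 138 CPM in B6 and 278 and 241 CPM in D2, against NN-MGC (B6, 2.68 CPM) or NN-ODC (D2, 1.49 CPM). Its smallest ratio of 37.7 was the largest of all symbols. Neu4 was near absent elsewhere. Chst5, a sulfotransferase, had 27.3 and 26.97 CPM in B6 and 29.3 and 35.4 CPM in D2, with Exc-DG at 2.41 (B6) and 4.14 (D2) CPM. Gucy2f, a guanylate cyclase known from photoreceptors, had 86.98 and 62.3 CPM in B6 and 62.9 and 90.03 CPM in D2, with NN-Astro at 5.02 (B6) and 3.96 (D2) CPM. Rlbp1, which binds retinaldehyde in the eye, had 123 and 116 CPM in B6 and 93.1 and 92.2 CPM in D2, with NN-Astro (B6, 12.4 CPM) or CR-CR (D2, 14.2 CPM). Rlbp1 and Gucy2f were thus both counted in every OPC library although they are best known from the retina.

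Receptors and ligands came next. Gpr17, a receptor of committed precursors, had 167 and 137 CPM in B6 and 184 and 149.8 CPM in D2, with NN-MGC (B6, 5.37 CPM) or CR-CR (D2, 7.10 CPM) and ODC at 3.94 and 3.36. Lgr5, a receptor for R-spondins that raises Wnt signalling, had 161 and 138 CPM in B6 and 121 and 126 CPM in D2, with Inh-MGE (B6, 11.1 CPM) or Inh-Lamp5 (D2, 16.1 CPM). C1ql1, a secreted C1q-like ligand, had 112 and 115 CPM in B6 and 156 and 158 CPM in D2, with NN-VLMC at 12.5 (B6) and 18.7 (D2) CPM. All 3 stood at least 7.11 times above the next label in the least separated library. Tafa4, a secreted chemokine-like protein, had 72.98 and 66.2 CPM in B6 and 81.9 and 71.6 CPM in D2, with Exc-CA1-Galntl6 at 6.59 (B6) and 7.72 (D2) CPM. Susd5, a sushi domain protein, had 139 and 93.1 CPM in B6 and 103 and 94.5 CPM in D2, with NN-VLMC (B6, 1.56 CPM) or CR-CR (D2, 7.10 CPM). Emid1, which carries an EMI domain, had 272 and 262 CPM in B6 and 305 and 314 CPM in D2, with NN-Astro at 22.4 (B6) and 14.5 (D2) CPM. Emid1 varied least between libraries of a strain among these 3.

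Lhfpl3, a tetraspan membrane protein, had 5803 and 6013 CPM in B6 and 5321 and 5746 CPM in D2, with Exc-Cdh12 at 438 (B6) and 551 (D2) CPM. ODC had 46.4 and 56.02 CPM of it. The antisense transcript Gm42948 lies within Lhfpl3 on the other strand and had 579 and 662 CPM in B6 and 392 and 424 CPM in D2, so its counts are uncertain. Lgr5 and A930009A15Rik (132 and 139 CPM in B6 and 193 and 179 CPM in D2) overlap on opposite strands in the same way. The long noncoding RNA 6030407O03Rik had 178 and 172 CPM in B6 and 135 and 151 CPM in D2. Gm38039, antisense to Tnr, had 75.9 and 71.9 CPM in B6 and 159 and 142 CPM in D2. Whether reads of such partners were counted for the wrong gene was not tested. Other identity genes also overlap an entry on the opposite strand, among them Tes, Vipr2, Inava and Ppfibp1.

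Adaptor and structural proteins completed the named genes. Shc4, an adaptor of receptor tyrosine kinases, had 225 and 245 CPM in B6 and 151 and 168 CPM in D2, with NN-ODC at 10.4 (B6) and 11.95 (D2) CPM. Afap1l2, an adaptor of Src family kinases, had 198 and 199 CPM in B6 and 243 and 221 CPM in D2, with NN-VLMC (B6, 34.3 CPM) or NN-Astro (D2, 28.04 CPM). Sapcd2, which acts in spindle orientation, had 30.96 and 19.3 CPM in B6 and 25.00 and 29.5 CPM in D2. These 3 genes covered a wide range of levels but were all above every other label. Scel, known from the cornified envelope of skin, had 108 and 122 CPM in B6 and 81.9 and 102 CPM in D2 and 0 CPM in ODC of both strains. S100a2, a calcium-binding protein, had 47.2 and 37.3 CPM in B6 and 27.6 and 29.5 CPM in D2. S100a2 overlaps S100a3 on the same strand, and S100a3 is also an identity gene, so the 2 are uncertain as separate results.

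Of 23 genes commonly used to recognise precursor nuclei, 19 were highest in OPC in all libraries (2.92% of the 12621 symbols) and 8 were identity genes. Those that OPC share with another label include Pcdh15, a protocadherin, at 3725 and 3951 CPM in B6 and 3678 and 3929.7 CPM in D2, with Exc-Cdh12 at 2666 (B6) and 2958 (D2) CPM. Luzp2 had 2041 and 1979 CPM in B6 and 1895 and 2013 CPM in D2, with NN-Astro at 2489.6 (B6) and 1968 (D2) CPM, and was not highest in OPC. Ptprz1, a receptor phosphatase that binds chondroitin sulfate, had 2674 and 2954 CPM in B6 and 2765 and 2965 CPM in D2, with NN-Astro at 2092 (B6) and 2323 (D2) CPM. The transcription factor Sox6 had 1619 and 1588 CPM in B6 and 1659 and 1669 CPM in D2, with NN-Astro at 884 (B6) and 994 (D2) CPM. These 4 genes are precursor genes that astrocytes or a neuron label also carry. Of 20 genes of the proteoglycan matrix, 9 were highest in OPC, beside 2.92% of the 12621 symbols. Tnr, which encodes tenascin-R, had 3954 and 3383 CPM in B6 and 3233 and 3056 CPM in D2, with Exc-DG at 939.8 (B6) and 667 (D2) CPM. Xylt1, which starts chondroitin sulfate chains, had 1772 and 1955 CPM in B6 and 1747 and 1844 CPM in D2, with Exc-CA1-Fras1 at 568 (B6) and 564 (D2) CPM.

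Markers of other cells were read in the OPC columns as well. Of 7 neuron markers 6 were counted in both strains, and the summed level was 1679 and 1728 CPM in B6 and 1628 and 1305 in D2, with Meg3 the most abundant. Of 7 astrocyte markers 5 were counted, summing to 669 and 602 CPM in B6 and 615 and 622 in D2, led by Slc1a2. Microglia markers counted 4 of 7, summing to 256 and 261 CPM in B6 and 197 and 181 in D2, led by P2ry12. Vascular markers counted 1 of 10 (Dcn), and the list summed to 14.7 and 28.9 CPM in B6 and 41.4 and 26.6 in D2. Members of the lists differed. Gad2, Gfap, Tmem119 and Col1a1 were near 0, whereas the mean in OPC was 1010 CPM for Meg3, 326 CPM for Slc1a2 and 134 CPM for P2ry12. For scale, the neuron list summed to 18825 CPM in the highest B6 label. Whether nuclei or RNA of those cells contributed to the OPC columns was not tested.

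Chromatin accessibility was described at gene starts. The OPC label held 97 of 27206 snATAC-seq nuclei, with 26, 14, 32 and 25 in the 4 libraries, so the libraries were summed and given with exact Poisson intervals for counting error. Labels of these nuclei were transferred from the snRNA-seq labels through gene activity, and the values are therefore no independent check of the label. Of the 20 named identity genes, 14 had a start-site window in RefSeq and 12 had a peak over it. OPC were the highest of 15 labels at 8 of these 12 peaks (66.7%), against 787 of 14448 start-site peaks (5.45%) of all genes. These 15 labels do not include NN-VLMC or CR-CR, which are among the 17 labels of snRNA-seq. In snRNA-seq, NN-VLMC or CR-CR was the next label for Susd5 and 6030407O03Rik in both strains, for Rlbp1 in D2 and for Afap1l2 in B6. The rank of OPC at peaks is thus over fewer labels than that in snRNA-seq. The peak of Susd5 had 5, 6, 15 and 8 counts in the libraries, or 25.01 CPM (95% interval 17.3 to 34.9), next Inh-CGE at 6.02. The peak of Rlbp1 had 3, 5, 9 and 6 counts, or 16.9 CPM (95% interval 10.7 to 25.4), next NN-Astro at 8.05. For Tafa4 the counts were 7, 2, 7 and 3, or 13.97 CPM (95% interval 8.41 to 21.8), next NN-ODC at 5.82. The OPC intervals of these 3 genes lie above the value of the next label. Those of the other 5 peaks with OPC highest (6030407O03Rik, Scel, A930009A15Rik, Chst5 and Afap1l2) include it. No interval was made for the next label here or below, so its own counting error is not covered. In the single libraries the Tafa4 peak had 25.2, 6.99, 18.6 and 7.17 CPM, so 2 of them lay close to ODC. Of the markers only Vcan had a start-site peak, at 17.7 CPM (95% interval 11.3 to 26.3), next Inh-Lamp5 at 11.3.

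**Figure D3:**
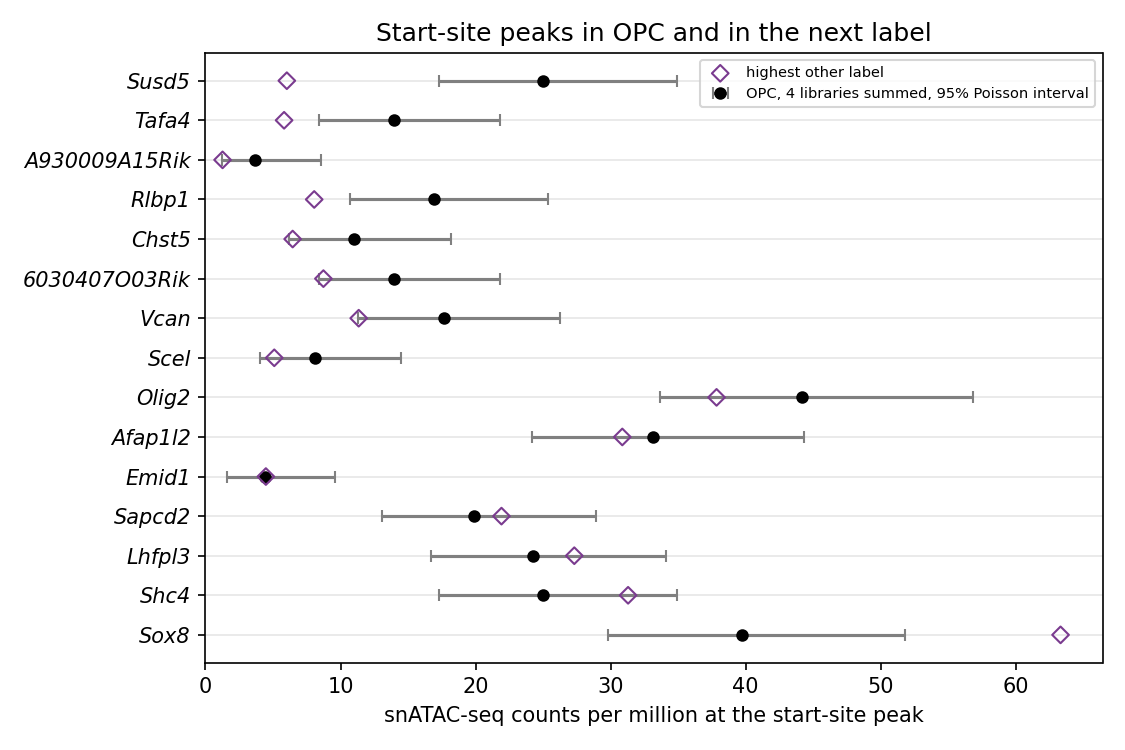
snATAC-seq CPM at start-site peaks in OPC, with exact 95% Poisson intervals, and in the highest other label. The other label is drawn without an interval. Libraries were summed.

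Among 17 start-site peaks of lineage transcription factors, OPC were highest at 3, those of Olig2, Sox11 and Prox1, beside 5.45% of all start-site peaks. For Sox11 (71.3 CPM (95% interval 57.9 to 87.04), next Inh-CGE at 71.3) and Prox1 (33.1 CPM (95% interval 24.1 to 44.3), next NN-ODC at 31.3) the next label lies within the interval. Olig2, which specifies the lineage, had 44.1 CPM (95% interval 33.7 to 56.8), next NN-ODC at 37.8, so its interval includes the level of ODC. Sox8 had 39.7 CPM (95% interval 29.8 to 51.8), next NN-ODC at 63.3, and ODC stood above the OPC interval. The 9 peaks of myelin genes and the 4 peaks of genes of committed precursors included none at which OPC were highest. The peak of Mag had 0, 0, 1 and 0 counts in OPC, and ODC had 42.2 CPM there. ODC stood above OPC at all 9 myelin peaks.

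The start-site windows of 5 genes show the sequence under these values: Olig2, Susd5 and Rlbp1 have a peak with OPC highest, and Neu4 and Bmp4 differed between the strains (below). They are RefSeq sequences of build GRCm38.p6, from 250 bases before to 50 after the start, written in the direction of the gene. Olig2 is at chr16:91225300-91225599 (plus strand), Susd5 at chr9:114057104-114057403 (plus), Rlbp1 at chr7:79386978-79387277 (minus), Neu4 at chr1:94020243-94020542 (plus) and Bmp4 at chr14:46390620-46390919 (minus). Capitals mark matches, on either strand, to the E-box CANNTG that basic helix-loop-helix factors bind, to the SOX core ACAAAG, and to TATAAA.
Olig2: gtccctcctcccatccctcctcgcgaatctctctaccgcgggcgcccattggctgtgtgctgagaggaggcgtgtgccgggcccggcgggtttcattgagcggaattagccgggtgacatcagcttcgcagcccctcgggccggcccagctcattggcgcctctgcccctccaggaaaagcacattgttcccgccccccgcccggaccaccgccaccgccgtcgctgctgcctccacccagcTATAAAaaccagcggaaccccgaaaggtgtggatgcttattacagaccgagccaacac
Susd5: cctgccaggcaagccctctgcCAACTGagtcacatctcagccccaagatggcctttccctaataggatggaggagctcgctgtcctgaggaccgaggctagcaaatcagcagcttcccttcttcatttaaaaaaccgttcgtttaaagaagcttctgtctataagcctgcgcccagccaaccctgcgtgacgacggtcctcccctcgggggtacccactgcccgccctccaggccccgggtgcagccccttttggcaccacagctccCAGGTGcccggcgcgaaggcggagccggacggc
Rlbp1: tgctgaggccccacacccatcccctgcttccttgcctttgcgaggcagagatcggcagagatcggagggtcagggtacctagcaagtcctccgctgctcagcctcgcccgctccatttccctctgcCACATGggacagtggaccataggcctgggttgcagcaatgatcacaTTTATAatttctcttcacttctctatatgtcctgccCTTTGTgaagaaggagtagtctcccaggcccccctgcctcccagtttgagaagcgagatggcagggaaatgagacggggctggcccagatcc
Neu4: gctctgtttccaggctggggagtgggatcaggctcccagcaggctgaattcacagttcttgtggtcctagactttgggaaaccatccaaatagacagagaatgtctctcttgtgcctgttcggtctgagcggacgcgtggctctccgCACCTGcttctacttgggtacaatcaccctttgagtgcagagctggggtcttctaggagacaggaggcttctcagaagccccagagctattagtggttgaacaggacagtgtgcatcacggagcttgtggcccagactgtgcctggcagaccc
Bmp4: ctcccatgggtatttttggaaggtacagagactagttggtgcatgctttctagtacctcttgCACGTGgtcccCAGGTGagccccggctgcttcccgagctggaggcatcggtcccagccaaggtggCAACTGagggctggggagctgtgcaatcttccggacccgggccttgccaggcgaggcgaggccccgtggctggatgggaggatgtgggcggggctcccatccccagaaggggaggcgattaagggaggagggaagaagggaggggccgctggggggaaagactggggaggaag
The E-box occurs in 72.3% of all 32851 windows of this length, the SOX core in 18.7% and TATAAA in 13.6%. Bmp4 holds 3 E-boxes, Susd5 holds 2, and Rlbp1 and Neu4 hold 1 each. Rlbp1 also holds 1 SOX core and 1 TATAAA, both on the opposite strand, and Olig2 holds 1 TATAAA. A match is a description of letters and no evidence of binding.

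The strains were compared within OPC with edgeR's quasi-likelihood test, 2 D2 libraries against 2 B6 libraries, with Benjamini-Hochberg adjustment over the 11536 symbols tested. At an adjusted p under 0.05, 1139 symbols differed (9.87%), 496 higher in D2 (4.30%) and 643 lower (5.57%). Of these, 416 had a log2 fold change of at least 1 in either direction. DESeq2 called 342, with 122 higher and 220 lower. When all symbols were kept, including those counted in 1 strain only, edgeR called 1083 higher and 888 lower, so the larger group turned from lower to higher. The shares set beside the lists below are those of the first fit. The median over all symbols in that fit was 0.01. These p-values measure the spread between libraries of about 2 pooled animals each, and an exact permutation of 2 against 2 cannot go below 0.333. Strain, mapping and gene lists cannot be told apart in a symbol that differs across many labels, so the median log2 ratio of the 16 other labels, from the same libraries, is given beside each of the 20 genes named by size, and beside some members of the lists below. The lists below were chosen with earlier results of these data known, and some share genes. Their shares and medians are therefore a description and no test.

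**Figure D4:**
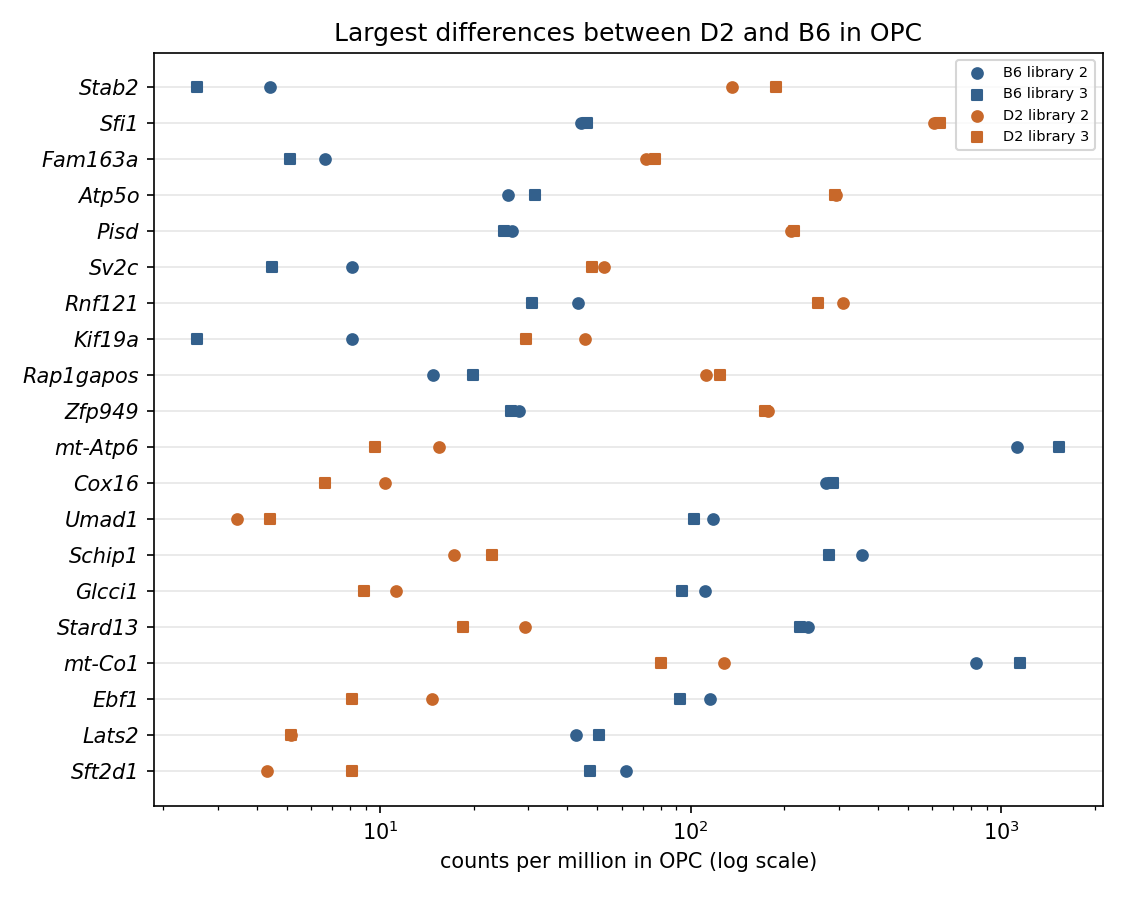
Levels in the 4 OPC libraries of the 10 genes with the largest difference in each direction. The scale is logarithmic.

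In all 20 named genes both D2 libraries lie on one side of both B6 libraries, as the naming rule requires. All 20 were also called with DESeq2 and when any 1 library was left out. A fit without 1 library leaves 1 library in that strain and takes its spread from the other strain alone, so it shows only whether a call hangs on that library. A call can be lost in such a fit while the log2 fold change stays about as large. This holds for every such fit below.

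Higher in D2 was Stab2, a scavenger receptor that binds hyaluronan, with 4.42 and 2.57 CPM in B6 and 136 and 188 CPM in D2 (log2 fold change 5.50, adjusted p = 1.43e-30; other labels 3.58, D2 higher in 16 of 16). Sfi1, a centrosome protein, had 44.2 and 46.2 CPM in B6 and 607 and 638 CPM in D2 (log2 fold change 3.75, adjusted p = 7.85e-41; other labels 2.80, D2 higher in 16 of 16). Fam163a had 6.63 and 5.14 CPM in B6 and 71.6 and 76.7 CPM in D2 (log2 fold change 3.62, adjusted p = 3.66e-18; other labels -0.24, D2 higher in 7 of 16). The first 2 were higher in D2 in every label, whereas Fam163a was not, and the highest other label for it was NN-Astro at 148 (B6) and 52.6 (D2) CPM. Atp5o, an ATP synthase subunit, had 25.8 and 31.5 CPM in B6 and 293 and 292 CPM in D2 (log2 fold change 3.31, adjusted p = 8.99e-32; other labels 4.09, D2 higher in 16 of 16). It has 2 annotation entries and overlaps other genes, and is uncertain. Pisd, the mitochondrial phosphatidylserine decarboxylase, had 26.5 and 25.05 CPM in B6 and 210.3 and 215 CPM in D2 (log2 fold change 3.01, adjusted p = 4.70e-27; other labels 3.11, D2 higher in 16 of 16). It has the copies Pisd-ps1 and Pisd-ps2 and is uncertain too. Sv2c, a synaptic vesicle protein, had 8.11 and 4.50 CPM in B6 and 52.6 and 47.97 CPM in D2 (log2 fold change 2.97, adjusted p = 3.64e-12; other labels 2.70, D2 higher in 15 of 16). Rnf121, a ubiquitin ligase, had 43.5 and 30.8 CPM in B6 and 309 and 258 CPM in D2 (log2 fold change 2.91, adjusted p = 2.35e-28; other labels 4.11, D2 higher in 16 of 16). Kif19a, a kinesin of cilia, had 8.11 and 2.57 CPM in B6 and 45.7 and 29.5 CPM in D2 (log2 fold change 2.80, adjusted p = 6.28e-09; other labels -0.07, D2 higher in 6 of 16). Sv2c and Rnf121 differed in nearly all labels. Kif19a did not, and it was near 0 in many of them. Its log2 fold change ranged from 2.13 to 3.78 when 1 library was left out. Rap1gapos had 14.7 and 19.9 CPM in B6 and 112 and 124 CPM in D2 (log2 fold change 2.72, adjusted p = 1.79e-19; other labels 2.53, D2 higher in 15 of 16), and it is antisense to Rap1gap and so uncertain. Zfp949, a zinc finger protein, had 28.01 and 26.3 CPM in B6 and 178 and 173 CPM in D2 (log2 fold change 2.66, adjusted p = 4.26e-23; other labels 1.40, D2 higher in 16 of 16). Sfi1 (with Drg1), Sv2c and Zfp949 also overlap entries on the same strand, and Stab2 overlaps entries on the other strand, so these are uncertain as well. Fam163a, Rnf121 and Kif19a overlap no other entry.

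Lower in D2 was mt-Atp6, a mitochondrially encoded ATP synthase subunit, with 1125 and 1540.1 CPM in B6 and 15.5 and 9.59 CPM in D2 (log2 fold change -6.77, adjusted p = 3.83e-53; other labels -6.19, D2 higher in 0 of 16). It overlaps mt-Atp8 and mt-Co3 and is uncertain. mt-Co1, a subunit of cytochrome c oxidase, had 830.016 and 1153 CPM in B6 and 128 and 80.4 CPM in D2 (log2 fold change -3.29, adjusted p = 4.07e-38; other labels -2.99, D2 higher in 0 of 16). Cox16, which helps to assemble that oxidase, had 272 and 288 CPM in B6 and 10.3 and 6.64 CPM in D2 (log2 fold change -5.08, adjusted p = 1.10e-36; other labels -4.54, D2 higher in 0 of 16). All 3 were lower in D2 in every label. mt-Atp6 and mt-Co1 are encoded in mitochondria, while the libraries were made from nuclei. Whether their counts came from OPC or from other RNA in the preparation was not tested. Umad1 had 118 and 103 CPM in B6 and 3.45 and 4.43 CPM in D2 (log2 fold change -4.79, adjusted p = 3.54e-25; other labels -3.92, D2 higher in 0 of 16). Schip1, which binds merlin, had 356 and 279 CPM in B6 and 17.2 and 22.9 CPM in D2 (log2 fold change -3.99, adjusted p = 3.74e-34; other labels -4.37, D2 higher in 0 of 16). Schip1 shares its locus with the read-through gene Iqschfp and is uncertain. Glcci1, a glucocorticoid-induced gene, had 111 and 93.8 CPM in B6 and 11.2 and 8.86 CPM in D2 (log2 fold change -3.38, adjusted p = 1.88e-20; other labels -3.88, D2 higher in 0 of 16). Stard13, a GTPase-activating protein, had 239 and 224 CPM in B6 and 29.3 and 18.4 CPM in D2 (log2 fold change -3.32, adjusted p = 1.34e-28; other labels -2.47, D2 higher in 0 of 16). Both were lower in every label. Lats2, a kinase of the Hippo pathway, had 42.8 and 50.7 CPM in B6 and 5.17 and 5.17 CPM in D2 (log2 fold change -3.19, adjusted p = 2.72e-12; other labels -2.81, D2 higher in 0 of 16). Sft2d1, a vesicle transport protein, had 61.9 and 47.5 CPM in B6 and 4.31 and 8.12 CPM in D2 (log2 fold change -3.11, adjusted p = 4.73e-13; other labels -2.48, D2 higher in 0 of 16). Ebf1, a transcription factor, had 115 and 92.5 CPM in B6 and 14.7 and 8.12 CPM in D2 (log2 fold change -3.23, adjusted p = 1.16e-19; other labels 0.10, D2 higher in 9 of 16). Of the 10 genes lower in D2 OPC, Ebf1 was the only one that was not lower in most other labels, many of which were near 0 for it. Its highest other label was NN-VLMC at 707 (B6) and 526 (D2) CPM. Umad1 and Glcci1 both overlap Gm45062 on the same strand, and Cox16 overlaps Gm20498 and Adam4. Stard13, Lats2 and Sft2d1 overlap other entries on the same strand, and mt-Co1 and Ebf1 do so on the other strand. These are uncertain as well.

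Identity genes were compared by strain. Of 36 tested, 7 were higher and 3 lower in D2, beside 4.30% higher and 5.57% lower of all symbols, so the share lower was near that of all symbols. The median log2 fold change was 0.10, beside 0.01. Higher were Neu4 (log2 fold change 0.68, adjusted p = 3.09e-05), C1ql1 (log2 fold change 0.44, adjusted p = 0.0264), A930009A15Rik (log2 fold change 0.43, adjusted p = 0.0210), Gm38039 (log2 fold change 0.99, adjusted p = 2.17e-07), Inava (log2 fold change 0.89, adjusted p = 1.90e-07), Vipr2 (log2 fold change 0.84, adjusted p = 0.00489) and Car8 (log2 fold change 0.80, adjusted p = 1.09e-06), all by edgeR. Inava, a protein of epithelial junctions, had 108 and 110.5 CPM in B6 and 192 and 219.9 CPM in D2. Vipr2, a receptor of vasoactive intestinal peptide, had 30.96 and 28.9 CPM in B6 and 56.03 and 53.1 CPM in D2. Car8, a carbonic anhydrase relative without catalytic activity, had 120.2 and 133 CPM in B6 and 218 and 232 CPM in D2. D2 was above B6 in each of these 3 genes. Most other labels were also higher in D2, by the median log2 ratio of the other labels, for C1ql1 (0.22, D2 higher in 11 of 16), A930009A15Rik (0.25, D2 higher in 10 of 16), Gm38039 (0.62, D2 higher in 11 of 16), Inava (0.37, D2 higher in 12 of 16), Vipr2 (0.19, D2 higher in 10 of 16) and Car8 (0.29, D2 higher in 11 of 16), and not for Neu4 (-0.11, D2 higher in 6 of 16). Lower were Gm42948 (log2 fold change -0.63, adjusted p = 8.42e-07), Shc4 (log2 fold change -0.59, adjusted p = 2.75e-04) and Tes (log2 fold change -1.07, adjusted p = 4.03e-12). Tes, a focal adhesion protein, had 386 and 356 CPM in B6 and 172 and 189 CPM in D2. Most other labels were also lower for these 3, by the median log2 ratio of the other labels: Gm42948 (-0.67, D2 higher in 1 of 16), Shc4 (-0.37, D2 higher in 5 of 16) and Tes (-0.68, D2 higher in 4 of 16). All 10 genes were low in most other labels. The median level of the other labels was 1.23 (B6) and 1.25 (D2) CPM for C1ql1 and 0.521 (B6) and 0.712 (D2) CPM for Vipr2. It was highest for Gm38039 among the 10, at 6.83 (B6) and 8.01 (D2) CPM. Ratios so near the floor, with 1 CPM added to both sides, do not show that a difference is shared. C1ql1 lost its call without B6 library 2, B6 library 3, D2 library 2 or D2 library 3, with log2 fold changes of 0.42 to 0.45. A930009A15Rik lost its call in the same fits, with log2 fold changes of 0.38 to 0.48. Vipr2 lost its call without B6 library 3, and its log2 fold change stayed between 0.77 and 0.89. DESeq2 called the other 7 of the 10. The markers Pdgfra (log2 fold change -0.01), Cspg4 (0.09) and Vcan (-0.04) were not called, and neither was Gpr17 (0.10).

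Over the 23 precursor genes, 7 were higher and 1 lower in D2 (all symbols: 4.30% higher and 5.57% lower), with a median log2 fold change of 0.09. Apart from Neu4, C1ql1 and the transcription factors below, Matn4, a matrilin, had 205 and 197 CPM in B6 and 269.8 and 294 CPM in D2 (log2 fold change 0.46, adjusted p = 0.00328). Mmp16, a membrane matrix metalloprotease, had 894 and 975 CPM in B6 and 1139.6 and 1227 CPM in D2 (log2 fold change 0.31, adjusted p = 0.0106). Tnr was lower (log2 fold change -0.25, adjusted p = 0.0201). All 3 are small differences. Other labels moved the same way for Matn4 (0.37, D2 higher in 14 of 16) and Tnr (-0.49, D2 higher in 2 of 16). Matn4 lost its call without B6 library 3 or D2 library 3 (adjusted p up to 0.129), Mmp16 lost its call without B6 library 2 or D2 library 3 (adjusted p up to 0.228) and Tnr lost its call without B6 library 2 or D2 library 3 (adjusted p up to 0.433). DESeq2 called 3 of the 8, Neu4, Olig2 and Sox10.

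Transcription factors of the lineage were compared next. Of 21, 18 were tested, 8 were higher in D2 and 0 lower (all symbols: 4.30% higher and 5.57% lower), with a median log2 fold change of 0.47. Olig2 had 77.4 and 69.4 CPM in B6 and 125 and 164 CPM in D2 (log2 fold change 0.96, adjusted p = 1.20e-06, edgeR). Sox10, which activates myelin genes, had 383 and 381 CPM in B6 and 587 and 579 CPM in D2 (log2 fold change 0.58, adjusted p = 6.99e-06). Tcf7l2, an effector of Wnt signalling, had 179.9 and 201 CPM in B6 and 310.3 and 299 CPM in D2 (log2 fold change 0.64, adjusted p = 1.68e-05). D2 lay above B6 in each. The next label moved the same way for Olig2 (NN-ODC at 29.00 (B6) and 36.97 (D2) CPM, log2 ratio in ODC 0.34) and Sox10 (NN-ODC at 303 (B6) and 486 (D2) CPM, log2 ratio in ODC 0.68), and so it did for Nkx2-2 (NN-ODC at 29.2 (B6) and 49.3 (D2) CPM, log2 ratio in ODC 0.73). For Tcf7l2 it was NN-Astro at 428 (B6) and 438 (D2) CPM. ODC was also higher in D2 for Zeb2 (log2 ratio in ODC 0.29). For Zfp488 ODC was lower in D2, at 20.2 (B6) and 12.3 (D2) CPM (log2 ratio in ODC -0.67). For Olig1 it was not higher, at 66.8 (B6) and 64.6 (D2) CPM (log2 ratio in ODC -0.05). Olig1, the partner of Olig2, had 56.8 and 64.9 CPM in B6 and 87.9 and 123 CPM in D2 (log2 fold change 0.77, adjusted p = 5.17e-04). Sox4, a SOX factor of immature cells, had 70.8 and 56.5 CPM in B6 and 90.5 and 111 CPM in D2 (log2 fold change 0.65, adjusted p = 0.00404). Nkx2-2, which promotes differentiation, had 78.9 and 66.8 CPM in B6 and 103 and 106 CPM in D2 (log2 fold change 0.49, adjusted p = 0.0341). These 3 were also higher in D2. Zfp488, a partner of Olig2, had 30.2 and 34.7 CPM in B6 and 49.1 and 57.6 CPM in D2 (log2 fold change 0.69, adjusted p = 0.0265), and Zeb2, which limits BMP signalling, had 726 and 686 CPM in B6 and 909 and 835 CPM in D2 (log2 fold change 0.27, adjusted p = 0.0402). Most other labels were also higher in D2, by the median log2 ratio, for Sox4 (0.52, D2 higher in 15 of 16), Nkx2-2 (0.21, D2 higher in 12 of 16) and Zeb2 (0.18, D2 higher in 14 of 16). The same held for Olig2 (0.19, D2 higher in 10 of 16). It did not hold for Sox10 (0.03, D2 higher in 8 of 16), Tcf7l2 (-0.01, D2 higher in 8 of 16), Olig1 (-0.05, D2 higher in 7 of 16) or Zfp488 (0, D2 higher in 5 of 16). Olig2 and Nkx2-2 were near 0 in many of these labels. The median level of the other labels was 0.791 (B6) and 0.755 (D2) CPM for Olig2. For Nkx2-2 it was 0.321 (B6) and 0.504 (D2) CPM. Olig1 lost its call without D2 library 3 (adjusted p = 0.211), Sox4 lost its call without B6 library 3 or D2 library 3 (adjusted p up to 0.220) and Nkx2-2 lost its call without B6 library 3, D2 library 2 or D2 library 3 (adjusted p up to 0.378). Zfp488 lost its call without B6 library 2, B6 library 3 or D2 library 3 (adjusted p up to 0.300) and Zeb2 lost its call without B6 library 2, B6 library 3, D2 library 2 or D2 library 3 (adjusted p up to 0.333). With DESeq2 only Olig2, Sox10 and Tcf7l2 remained called. Sox9, Nkx6-2 and Id4 were too low to test, and Myrf, which switches on myelin genes, had 17.7 and 14.8 CPM in B6 and 20.7 and 16.2 CPM in D2 and was not called.

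Genes of committed precursors showed the largest median of any list, a description only, as the lists were chosen with earlier results of these data known. All 8 were tested, 6 were higher in D2 and 0 lower (all symbols: 4.30% higher and 5.57% lower), with a median log2 fold change of 0.66. The list summed to 2054 and 1877 CPM in B6 and 3122 and 2722 in D2. Enpp6, a phosphodiesterase of newly forming oligodendrocytes, had 24.3 and 20.6 CPM in B6 and 143 and 78.2 CPM in D2 (log2 fold change 2.25, adjusted p = 2.32e-14, edgeR). Bmp4, a secreted bone morphogenetic protein, had 22.9 and 17.3 CPM in B6 and 84.5 and 73.8 CPM in D2 (log2 fold change 1.95, adjusted p = 2.18e-11). Bcas1, found in early myelinating cells, had 422 and 473 CPM in B6 and 873 and 763 CPM in D2 (log2 fold change 0.84, adjusted p = 4.69e-11). D2 was above B6 for all 3. The label next to OPC, or above it, was also higher in D2 for these 3. It was NN-ODC at 76.6 (B6) and 122 (D2) CPM for Enpp6. For Bmp4 it was NN-VLMC at 68.6 (B6) and 136 (D2) CPM, and for Bcas1 NN-ODC at 531 (B6) and 598 (D2) CPM. Most other labels were not higher in D2. Their median log2 ratio was -0.20 for Enpp6 (D2 higher in 5 of 16) and -0.41 for Bcas1 (D2 higher in 6 of 16). For Bmp4 the median was 0 (D2 higher in 6 of 16). Enpp6 and Bmp4 were near 0 in many of these labels. Fyn, a Src family kinase, had 484 and 419 CPM in B6 and 709 and 595 CPM in D2 (log2 fold change 0.50, adjusted p = 1.36e-04). Its next label, CR-CR, was not higher in D2, at 219 (B6) and 213 (D2) CPM. Most other labels were not higher either (median log2 ratio -0.03, D2 higher in 6 of 16), and the log2 ratio in ODC was -0.40. Neu4 and Tcf7l2 (above) were the other 2. Itpr2, a calcium release channel, was not called (log2 fold change -0.01, adjusted p = 0.985), nor was Gpr17 (log2 fold change 0.10, adjusted p = 0.730). All 6 were also called with DESeq2 and when any 1 library was left out, in fits whose spread comes from 1 strain only. A larger share of committed precursors among the nuclei and a higher level in each nucleus cannot be told apart in these sums.

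**Figure D5:**
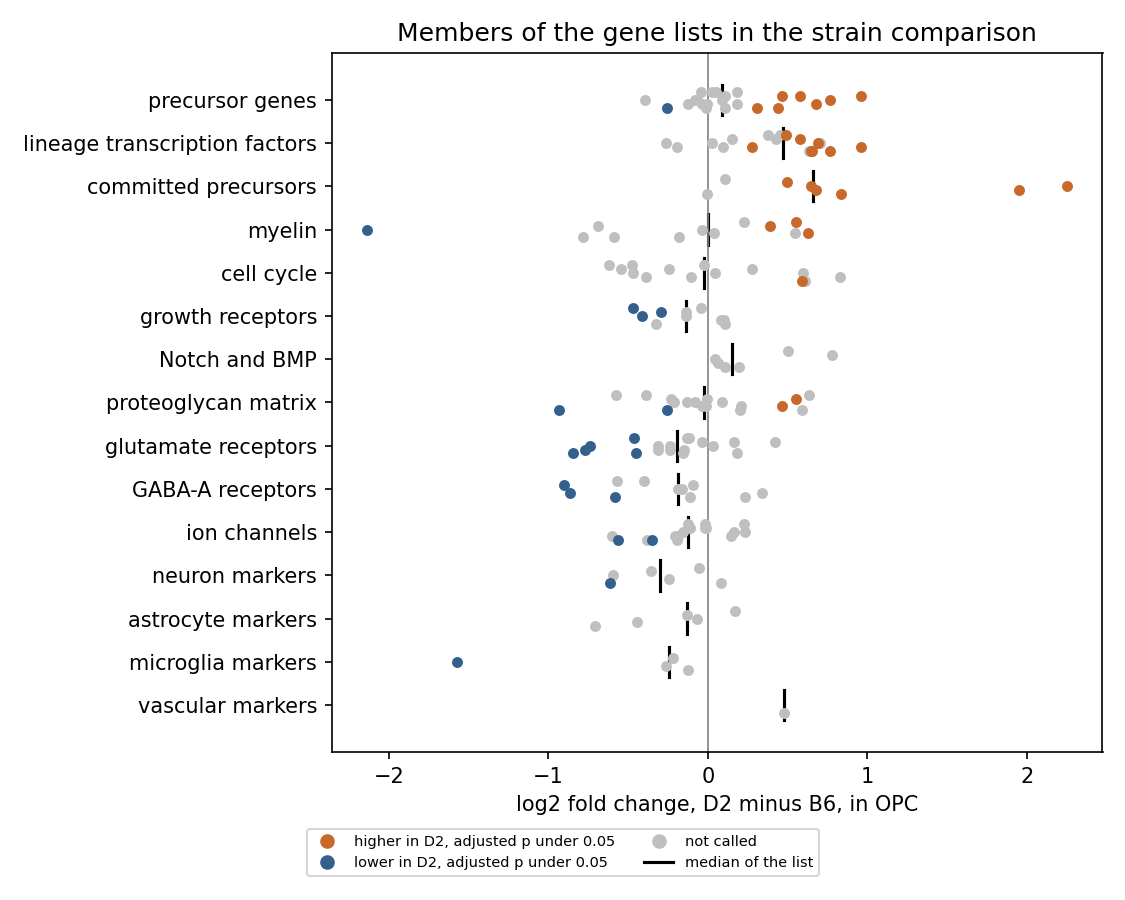
Log2 fold change of D2 minus B6 in OPC for each tested member of the gene lists, with the median of each list. Colour marks genes at an adjusted p under 0.05.

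Each point is 1 gene, and most lists lie around 0. The committed precursor list and the transcription factors lie mainly to the right, and the receptor lists have their called members to the left.

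Myelin genes were low in OPC. The 18 genes summed to 1131 and 1120.1 CPM in B6 and 1454 and 1425 in D2, against 20688 in ODC of B6 and 21206 in ODC of D2, and Klk6 was at 0. Of 12 tested, 3 were higher and 1 lower in D2 (all symbols: 4.30% higher and 5.57% lower), with a median log2 fold change of 0.00. Mbp, myelin basic protein, had 146 and 113 CPM in B6 and 243 and 167 CPM in D2 (log2 fold change 0.63, adjusted p = 5.86e-04). Gjc3, a gap junction protein, had 577 and 566 CPM in B6 and 673 and 850.2 CPM in D2 (log2 fold change 0.39, adjusted p = 0.00316). D2 was above B6 in both. Mobp, another myelin protein, was lower in D2 with 25.1 and 23.8 CPM in B6 and 8.62 and 2.95 CPM in D2 (log2 fold change -2.14, adjusted p = 3.01e-05), its log2 ratio in ODC was -1.18, and the median of the other labels was -1.32, with D2 higher in 0 of 16. For Mbp and Gjc3 most other labels were lower in D2: Mbp (-0.44, D2 higher in 1 of 16) and Gjc3 (-0.57, D2 higher in 2 of 16). Mbp lost its call without B6 library 3 or D2 library 2 (adjusted p up to 0.265) and Gjc3 lost its call without D2 library 3 (adjusted p = 0.461). With DESeq2 Mobp remained called, and Mbp and Gjc3 did not. The number of ODC nuclei for each OPC nucleus was lower in D2 (above), and the part of ODC RNA in these values was not tested.

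Cell cycle genes were mostly low and not called. Of 29 genes, 15 were tested and 1 was higher in D2, near the 4.30% of all symbols, with a median log2 fold change of -0.02. The list summed to 289.7 and 378 CPM in B6 and 342 and 416 in D2. Mki67, a marker of dividing cells, had 8.11 and 10.9 CPM in B6 and 17.2 and 17.7 CPM in D2, without overlap, and was not called (adjusted p = 0.159). Top2a, a topoisomerase of dividing cells, had 28.01 and 39.2 CPM in B6 and 31.9 and 50.9 CPM in D2, with overlap. Ccnd1, cyclin D1, had 40.5 and 60.4 CPM in B6 and 67.2 and 88.6 CPM in D2 (log2 fold change 0.59, adjusted p = 0.0264), and Ccnd1 lost its call without B6 library 2 or D2 library 3 (adjusted p up to 0.485), and with DESeq2. Its level was higher in D2 in all 16 other labels.

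Growth factor signalling was described from ligands to receptors. Of 6 genes of the PDGF family 4 were tested and 0 called, with a median log2 fold change of 0.03. The ligand Pdgfa had 8.11 and 10.3 CPM in B6 and 9.48 and 11.8 CPM in D2, and Pdgfrb, the receptor of pericytes, was near 0. Of 13 other growth factor receptors, 10 were tested, 0 were higher and 3 lower in D2 (median -0.14; all symbols: 4.30% higher and 5.57% lower). Fgfr2, a fibroblast growth factor receptor, had 1204 and 972 CPM in B6 and 834 and 768 CPM in D2 (log2 fold change -0.47, adjusted p = 7.75e-05). Erbb4, a neuregulin receptor, had 2960.3 and 2702 CPM in B6 and 2145 and 2191 CPM in D2 (log2 fold change -0.42, adjusted p = 3.85e-05). Ntrk2, the receptor of BDNF, had 519 and 461 CPM in B6 and 412 and 402 CPM in D2 (log2 fold change -0.30, adjusted p = 0.0483). D2 was below B6 in these 3, and other labels were also lower for Ntrk2 (-0.34, D2 higher in 0 of 16). Fgfr2 lost its call without B6 library 2 (adjusted p = 0.0557) and Ntrk2 lost its call without B6 library 2, D2 library 2 or D2 library 3 (adjusted p up to 0.400). DESeq2 called Fgfr2 and Erbb4. Of 9 genes of the Notch and BMP pathways, 6 were tested and 0 called (median 0.15). The Notch ligand Dll1 had 40.5 and 35.97 CPM in B6 and 37.9 and 42.1 CPM in D2, with CR-CR at 6.50 (B6) and 17.8 (D2) CPM. Dll1 and Dll3 were the 2 members of that list highest in OPC.

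Of the 20 matrix genes, 18 were tested, 2 were higher (Cspg5 and Matn4) and 2 lower (Acan and Tnr) in D2, not far from the 4.30% higher and 5.57% lower of all symbols. The median log2 fold change was -0.02. Cspg5, which encodes neuroglycan C, had 604 and 671 CPM in B6 and 878 and 1029 CPM in D2 (log2 fold change 0.55, adjusted p = 4.41e-06, edgeR), and it was higher in D2 in all 16 other labels. Acan, which encodes aggrecan, had 42.02 and 38.5 CPM in B6 and 20.7 and 22.1 CPM in D2 (log2 fold change -0.93, adjusted p = 0.00808). D2 was thus above B6 for Cspg5 and below it for Acan. Acan lost its call without D2 library 2 or D2 library 3 (adjusted p up to 0.0644), Matn4 lost its call without B6 library 3 or D2 library 3 (adjusted p up to 0.129) and Tnr lost its call without B6 library 2 or D2 library 3 (adjusted p up to 0.433). DESeq2 called only Cspg5.

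Receptors for neuronal input are described last. Of 20 glutamate receptor genes, 18 were tested, 0 were higher and 5 lower in D2 (all symbols: 4.30% higher and 5.57% lower, so that none higher is near the share of all symbols), with a median log2 fold change of -0.19. Grin3a, an NMDA receptor subunit, had 540.3 and 624 CPM in B6 and 409 and 454 CPM in D2 (log2 fold change -0.46, adjusted p = 4.54e-04, edgeR). Grik1, a kainate receptor subunit, had 458 and 446 CPM in B6 and 321 and 354 CPM in D2 (log2 fold change -0.45, adjusted p = 0.00129). Grm3, a metabotropic receptor, had 47.2 and 57.8 CPM in B6 and 32.8 and 27.3 CPM in D2 (log2 fold change -0.85, adjusted p = 0.00514). D2 was below B6 in each. Grin2a had 85.5 and 103 CPM in B6 and 57.8 and 55.3 CPM in D2 (log2 fold change -0.77, adjusted p = 6.14e-04) and Grin2b had 137 and 95.7 CPM in B6 and 88.8 and 54.6 CPM in D2 (log2 fold change -0.74, adjusted p = 0.00109), both subunits that neurons carry at far higher levels (Exc-DG (B6, 3910.3 CPM) or Exc-CA1-Galntl6 (D2, 3666 CPM) for Grin2a). Grik1 lost its call without D2 library 2 (adjusted p = 0.0713), Grm3 lost its call without B6 library 3 or D2 library 3 (adjusted p up to 0.124) and Grin2b lost its call without B6 library 2 or D2 library 3 (adjusted p up to 0.268). DESeq2 called Grik1 and Grin3a and did not call Grm3, Grin2b or Grin2a (adjusted p = 0.0853 for Grin2a). Most other labels were also lower for Grin2a (-0.16, D2 higher in 1 of 16) and Grm3 (-0.27, D2 higher in 4 of 16). The AMPA receptor genes Gria2 (log2 fold change 0.03, adjusted p = 0.886) and Gria4 (log2 fold change -0.13, adjusted p = 0.420) were not called. Cacng4, an AMPA receptor auxiliary subunit and identity gene, was not called either (log2 fold change 0.18, adjusted p = 0.322).

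Of 11 GABA-A receptor genes, all tested, 0 were higher and 3 lower in D2 (all symbols: 4.30% higher and 5.57% lower), with a median log2 fold change of -0.19. Gabrb1 had 530.001 and 459.9 CPM in B6 and 338 and 336 CPM in D2 (log2 fold change -0.58, adjusted p = 1.56e-05, edgeR). Gabra2 had 136 and 152 CPM in B6 and 66.4 and 93.7 CPM in D2 (log2 fold change -0.87, adjusted p = 1.06e-05), and it was lower in D2 in all 16 other labels (median log2 ratio -0.26). Gabra4 had 33.9 and 26.3 CPM in B6 and 16.4 and 16.2 CPM in D2 (log2 fold change -0.90, adjusted p = 0.0339). All 3 encode channel subunits and were lower in D2. Gabra4 lost its call without B6 library 2, D2 library 2 or D2 library 3 (adjusted p up to 0.240), and DESeq2 did not call it. It was lower in most other labels too: Gabra4 (-0.05, D2 higher in 4 of 16). Of 18 ion channel genes, 17 were tested, 0 were higher and 2 lower (median -0.13), near the 4.30% higher and 5.57% lower of all symbols. Cacna1a, a calcium channel subunit, had 428 and 423 CPM in B6 and 292 and 296 CPM in D2 (log2 fold change -0.56, adjusted p = 4.57e-05). Kcnd3, an A-type potassium channel subunit, had 339.8 and 304 CPM in B6 and 259 and 256 CPM in D2 (log2 fold change -0.35, adjusted p = 0.0299). Kcnd3 lost its call without B6 library 2, D2 library 2 or D2 library 3 (adjusted p up to 0.290), and DESeq2 did not call it. Most other labels were lower too for Cacna1a (-0.46, D2 higher in 1 of 16) and Kcnd3 (-0.10, D2 higher in 3 of 16). Kcnd2, the related subunit, had 4028 and 3684 CPM in B6 and 3568 and 3651 CPM in D2 and was not called.

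Markers of other cells were set beside these results. Of 6 neuron markers tested 1 was lower in D2 and 0 higher (median -0.30; all symbols: 4.30% higher and 5.57% lower). This was Syt1, a synaptic calcium sensor, with 215 and 231 CPM in B6 and 167 and 131 CPM in D2 (log2 fold change -0.61, adjusted p = 2.27e-04), and Syt1 lost its call without D2 library 3 (adjusted p = 0.0906). It was lower in most other labels as well: Syt1 (-0.10, D2 higher in 2 of 16). The summed neuron markers were lowest in D2 library 3, and their part in the lower receptor values was not tested. Of 5 astrocyte markers tested 0 were called (median -0.13). Of 4 microglia markers 1 was lower in D2 (median -0.24). The single vascular marker tested, Dcn, was not called (log2 fold change 0.48).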

How the data were processed

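The deposited snRNA-seq and snATAC-seq counts for each label and library, made by the authors, were used. Nuclei had been processed with Cell Ranger 6.0.2, Cell Ranger ATAC 2.0.0 and Seurat 4.0.5 on mm10, according to the submitters' processing notes, and the authors had removed potential doublets with DoubletFinder in both assays. Library numbers 2 and 3 are those of the tables, while the labels number replicates 1 and 2. Other labels were summed within a strain. The strain comparison used edgeR 4.0.16 (TMM, filterByExpr, glmQLFit, glmQLFTest) in R 4.3.3, without a block, and DESeq2 1.42.0 as the alternative. Replicate libraries differed by more than counting error (chi-square per degree of freedom 1.64 in B6 and 1.42 in D2). Gene positions came from GENCODE vM21. Named identity genes had the largest smallest ratio at a mean of 20 CPM or more. Named strain genes had the largest change at an adjusted p under 0.05, a mean of 20 CPM or more, a count in every library and no overlap of the strains. Members and lists were chosen with earlier results of these data known, and some are not reported here by name. Scripts ran in Python 3.11.15 with numpy 2.4.6, pandas 2.3.3, scipy 1.17.1 and matplotlib 3.10.9, and were tested on simulated data.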

Additional observations from a re-analysis of the deposited data

How the results depend on the processing

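The label OPC was set by clustering these nuclei, 2 libraries a strain give little measure of spread, and animals were pooled. The count of 37 identity genes became 24 with 5 CPM added in place of 1, 102 at a ratio of at least 2, and 56 when ODC was left out of the other labels. The strain comparison called 1139 symbols, and DESeq2 called 342 (122 higher, 220 lower in D2). Over all symbols 1971 were called, 1083 higher and 888 lower, or 54.9% higher against 43.5%. With the library number as a replicate block 712 were called. The numbers were not found to pair the libraries: the difference between libraries 2 and 3 in B6 correlated with that in D2 at r = 0.00912 over 7645 symbols, so a call lost under the replicate block is not read as a weaker effect. Leaving out each library in turn, which leaves 1 library in a strain, gave from 664 (without D2 library 3) to 888 calls. No call was reversed under any alternative. All 20 genes named by size and 16 of 39 called list members were called under every alternative.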

Other observations

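The snATAC-seq peaks with the largest smallest ratio of OPC to the next label were mostly away from gene starts. The same is true of all peaks, of which 14448 of 300819 lie over a start site. The first, chr12:17506851-17507354, lies 37692 bases from the start of Odc1, an enzyme of polyamine synthesis, with 15.4 CPM against 1.40 in Inh-Lamp5. The second, chr5:118164445-118164762, lies 45 bases from the start of Hrk, a BH3-only cell death gene, with 25.01 CPM against 3.85 in Exc-ENT. The peak chr5:23165470-23166814 lies within Lhfpl3, with 31.6 CPM against 5.09 in NN-ODC. The peaks chr4:18170102-18170496 (16.2 CPM against 2.91 in NN-ODC) and chr11:44665115-44665655 (9.56 CPM against 2.18 in NN-ODC) lie 317406 bases from the start of Mmp16 and within Ebf1.

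Identity genes beyond those named include Ppfibp1, a liprin, with 487 and 485 CPM in B6 and 591 and 612 CPM in D2, and Epn2, an endocytic epsin, with 1376 and 1559 CPM in B6 and 1634 and 1663 CPM in D2. B9d1, a protein of the ciliary transition zone, had 145 and 121 CPM in B6 and 115 and 100.4 CPM in D2. Cdo1, cysteine dioxygenase, had 102 and 110.5 CPM in B6 and 74.1 and 109.959 CPM in D2. None of these 4 differed between the strains at an adjusted p under 0.05.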
